A study of Mus musculus with 8 samples.

Results

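The CC chemokine ligands of immune cells sorted from the mouse brain were examined as 10 genes, chosen by symbol, of the 32285 genes in the count tables: Ccl2, Ccl3, Ccl4, Ccl5, Ccl6, Ccl7, Ccl8, Ccl9, Ccl12 and Ccl24. All 10 were found. Single-cell RNA sequencing had been carried out on CD45.2+ cells of perfused brains, in 8 libraries with 1 library for each condition. The conditions crossed 2 genotypes, WT (strain C57BL/6J) and APPNL-G-F (below App, a knock-in of the amyloid precursor gene with a humanized amyloid-β sequence and the Swedish, Arctic and Iberian mutations), with 4 treatments. Control mice drank water, the acute colitis mice drank 2% dextran sulfate sodium (DSS, which injures the colon lining) for 7 days, the chronic colitis mice had 3 cycles of 2% DSS for 5 days at a time, alternating with water, and the food allergy mice were sensitised to ovalbumin with alum and then fed ovalbumin. All mice were 16 weeks old by their labels. Each sample had been marked with its own hashtag antibody and the marked samples of a condition were pooled in 1 library, so a condition and its library cannot be told apart.

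CC chemokines are small secreted proteins with a pair of adjacent cysteines near the start of the mature chain, and they draw leukocytes along a gradient through G protein-coupled receptors. Ccl2, Ccl7 and Ccl12 act on Ccr2, the receptor of classical monocytes, whereas mouse Ccl8 acts on Ccr8. Ccl3, Ccl5, Ccl6 and Ccl9 act on Ccr1, Ccl4 is a close relative of Ccl3 made by many activated leukocytes, and Ccl24 (eotaxin-2) acts on Ccr3 of eosinophils. In the brain, macrophages of the borders (meninges, perivascular space and choroid plexus) are resident cells at the sites where leukocytes enter from the blood.

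Of the 10 genes, 9 lie in 2 groups on chromosome 11 (GRCm38, GENCODE vM21 annotation). Ccl2 (82035571 to 82037453), Ccl7 (82045712 to 82047525), Ccl12 (82101845 to 82103400) and Ccl8 (82115185 to 82116799) follow each other on the plus strand. After a gap of 1409 kb come Ccl5 (83525778 to 83530518), Ccl9 (83572919 to 83578636), Ccl6 (83587882 to 83593087) and Ccl3 (83647844 to 83649355) on the minus strand and Ccl4 (83662584 to 83664683) on the plus strand. Ccl24 lies alone on chromosome 5 (135569937 to 135573049, minus strand). The coding stretch that gives the family its name is shown for 9 members, 30 bases of the coding strand, with the codons of the adjacent cysteines in capitals. It lies in exon 2, and in exon 3 of the 4 in Ccl6 and Ccl9.
Ccl2: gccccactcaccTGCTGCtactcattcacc
Ccl7: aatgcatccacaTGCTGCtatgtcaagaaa
Ccl12: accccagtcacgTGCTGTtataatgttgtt
Ccl8: gctccagtcaccTGCTGCtttcatgtacta
Ccl5: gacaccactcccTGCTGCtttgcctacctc
Ccl9: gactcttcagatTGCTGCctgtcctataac
Ccl6: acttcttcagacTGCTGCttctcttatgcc
Ccl4: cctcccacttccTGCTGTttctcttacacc
Ccl24: atcccctcatctTGCTGCacgtcctttatt
The flanking bases differ between all 9, whereas the capitals differ only in the last base of Ccl12 and Ccl4. Over the aligned coding sequences the most alike pairs were Ccl3 and Ccl4 (66.7% identical bases), Ccl8 and Ccl12 (64.2%) and Ccl6 and Ccl9 (63.7%), each pair within 1 of the groups.

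In all, 50088 cells were called, 4874 to 7199 per library, with 25616824 to 54618574 unique molecular identifiers (UMIs, one per captured transcript) in the cells of a library and a median of 2777 to 4130 UMIs per cell. Of 48572 distinct cell barcodes, 1482 occurred in more than 1 library. Cells were assigned to a type when at least 3 markers of that type were detected, none of them a CC chemokine or its receptor, and 3818 cells that met the gates of 2 lineages and 6409 that met none were left out of the types. The sort held few microglia: 62 cells passed the microglial gate, 0.124% of all cells, against 1526 border macrophages, and only 1 library had 20 of them. Levels below are CPM, the UMIs of a gene divided by all UMIs of the cells of that type in a library and scaled to counts per 1e+06.

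A division between hashtag groups touched several members. When the hashtag groups (30 of at least 30 cells) were compared by the summed CPM of 10 immediate-early genes (Fos, Jun, Egr1 and others, which are switched on within minutes of stimulation or tissue handling) in their T cells, 14 lay between 598 and 1692 and 16 between 2947 and 6006. Every library held 2 groups of the high set. Each of the 16 macrophage groups with at least 20 cells was in it. The library levels of several other types pool groups of both sets. For Ccl2, Ccl3 and Ccl4, which differed between the sets, the distance of those types to the macrophages is thus not free of the set. The sets are described where they move with a result.

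**Figure D1:**
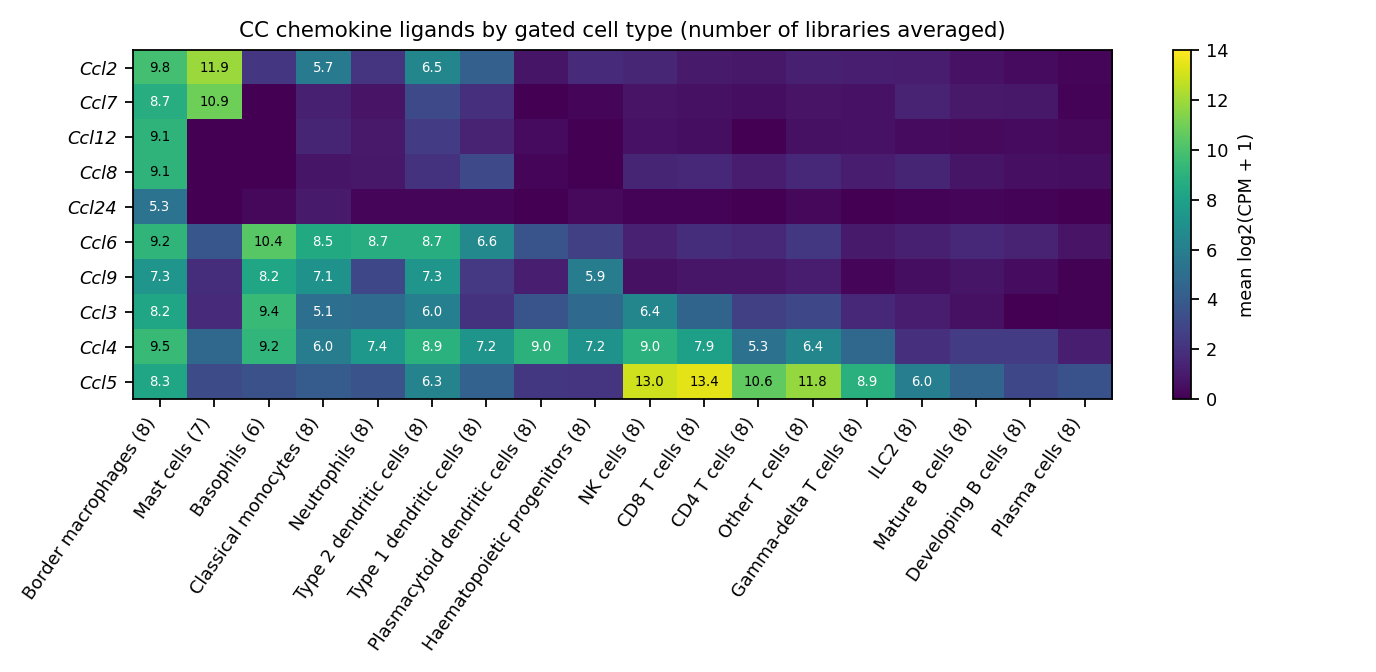
Mean log2(CPM + 1) over libraries of the 10 CC chemokine ligands (rows) in 18 gated cell types (columns, with the number of libraries that had at least 20 cells of the type in brackets). Values of 5 and above are printed in the cells. Ccl2, Ccl7, Ccl12, Ccl8 and Ccl24 were highest in border macrophages among the types measured in 8 libraries, whereas Ccl5 was highest in CD8 T cells and NK cells.

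Among the types measured in 7 or 8 libraries, the ligands of Ccr2 had their highest levels in border macrophages and, for Ccl2 and Ccl7, in mast cells. Ccl2, the main monocyte attractant, was at 901 ± 173 CPM in border macrophages (SD, n = 8 libraries). The 8 libraries lay between 691 CPM in App chronic colitis and 1155 CPM in WT acute colitis, with a median of 925 CPM. Mast cells, which were measured in 7 libraries, held 3781 ± 468 CPM (3376 to 4467) and exceeded the macrophages in 7 of 7 libraries. Type 2 dendritic cells (94.8 ± 40.6 CPM) and classical monocytes (68.9 ± 47.2 CPM) followed at a distance. The difference between macrophages and type 2 dendritic cells was 3.34 ± 0.74 on the log2(CPM + 1) scale (SD) and had the same sign in 8 of 8 libraries.

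Ccl2 UMIs were found in 55.7% of the border macrophages (95% exact binomial interval 53.2 to 58.2, median depth 2834.5 UMIs) and in 84.2% of the mast cells (79.2 to 88.3, median 2487.0 UMIs). In mature B cells, which should lack the gene and show the level of free RNA, 0.218% of cells had a Ccl2 UMI (median 2359.5 UMIs). When every cell was thinned to 1000 UMIs, leaving out 149 macrophages, 42 mast cells and 169 mature B cells that were shallower, the shares were 42.6%, 79.9% and 0.0795%. Intervals here cover counting error only. Of all 15595 Ccl2 UMIs, 32.7% lay in border macrophages, which were 3.05% of the cells, 17.5% in mast cells (0.529% of cells) and 16.1% in classical monocytes (6.21%). A further 18.7% lay in the cells of 2 lineages that were left out. The macrophage share was highest in WT (54.0%) and App acute colitis (40.9%). Border macrophages were also 8.25% and 3.85% of the cells in these libraries, against 2.04% in the WT control and 2.12% in the App control. In WT food allergy they were 5.11% of the cells and held 25.8% of the Ccl2 UMIs. Classical monocytes held more than macrophages in the WT control (27.4% against 21.8%) and App food allergy (25.0% against 16.2%), and less in the other libraries.

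Ccl7 followed the same cells. It was at 425 ± 99.6 CPM in border macrophages (303 to 573, n = 8) and at 2004 ± 480 CPM in mast cells (1198 to 2601, n = 7), again higher in mast cells in 7 of 7 libraries. Its UMIs were in 33.0% of macrophages and 41.5% of mast cells against 0.230% of mature B cells. Within the macrophages, 48.6% of the cells with a Ccl2 UMI also had a Ccl7 UMI, against 13.3% of those without (median depths 3075.0 and 2335.5 UMIs). In mast cells the shares were 48.4% and 4.76% (2801.0 and 1194.5 UMIs). Depth differed between the cells compared in the same direction, and its part was not tested.

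Ccl12, the other ligand of this receptor, stood at 559 ± 95.4 CPM in border macrophages (434 to 686) and at 9.77 ± 12.96 CPM in type 2 dendritic cells, the next of the types measured in 8 libraries. The macrophages exceeded them by 6.70 on the log2(CPM + 1) scale in 8 of 8 libraries. The microglia of the 1 library that had 20 of them were at 742 CPM. Ccl8 had a similar place, with 560 ± 157 CPM in border macrophages (360 to 822) and 45.8 ± 16.2 CPM in fibroblasts (n = 5), and exceeded type 1 dendritic cells by 5.97 on the log2(CPM + 1) scale in 8 of 8 libraries. Ccl24 was the member least found, with 644 UMIs in all cells and 63.7% of them in border macrophages. Its level in macrophages was 56.6 ± 57.9 CPM, with a lowest library of 16.2, a median of 25.7 and a highest of 180 CPM, so the spread over libraries was as large as the mean.

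Ccl6 and Ccl9 were shared by myeloid cells. Ccl6 was at 658 ± 410 CPM in border macrophages (301 to 1401), 604 ± 565 in neutrophils (88.6 to 1872), 430 ± 122 in type 2 dendritic cells and 415 ± 236 in classical monocytes (n = 8 each). These 4 types overlapped, and the macrophages exceeded the neutrophils in 3 of 8 libraries only. Basophils held 1646 ± 1079 CPM (n = 6) and were above the macrophages in 4 of 6 libraries. Of the 44097 Ccl6 UMIs, 32.9% came from classical monocytes and 24.3% from neutrophils. Ccl9 was at 170 ± 71.7 CPM in border macrophages, 161 ± 53.7 in type 2 dendritic cells and 145 ± 39.7 in classical monocytes (n = 8 each), which did not differ beyond their spread, and at 59.6 ± 12.7 in haematopoietic progenitors, below the monocytes in 8 of 8 libraries. Basophils held 315 ± 98.8 CPM (n = 6), more than the macrophages of the same libraries (mean 186 CPM) in 5 of 6. Classical monocytes held 49.2% of the 11660 Ccl9 UMIs.

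Ccl3 and Ccl4, which are neighbours on the chromosome, were spread over more types. Ccl3 was at 312 ± 95 CPM in border macrophages (179 to 470, n = 8) and at 837 ± 720 CPM in basophils (408 to 2296, n = 6), which were above the macrophages in 6 of 6 libraries. NK cells were next with 91.3 ± 34 CPM, lower than macrophages in 8 of 8 libraries. Ccl4 was at 755 ± 219 CPM in border macrophages, 540 ± 232 in NK cells, 504 ± 150 in type 2 dendritic cells and 285 ± 195 in CD8 T cells. Basophils stood at 968 ± 1327 CPM (n = 6), above the macrophages of the same libraries (mean 699 CPM) in 2 of 6. In plasmacytoid dendritic cells it ran from 25.8 CPM in App acute colitis to 2242 CPM in WT food allergy, and macrophages were above them in 4 of 8 libraries. Several of these types pool low and high immediate-early groups, whereas the tested macrophage groups were all high. The order of types in Ccl3 and Ccl4 cannot be told apart from the sets.

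The UMIs of both genes came from few cells. The 10% of neutrophils with most Ccl4 held 97.7% of its UMIs, and the same share was 95.7% in classical monocytes, 77.1% in NK cells and 70.7% in border macrophages. In macrophages with a Ccl3 UMI, 64.2% had a Ccl4 UMI, against 25.1% of those without (median depths 3472.0 and 2480.0 UMIs). In NK cells these shares were 59.9% and 28.9%, at similar depths (3419.5 and 3298.0 UMIs).

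Ccl5 (RANTES) was the ligand of cytotoxic cells. It was at 11097 ± 1377 CPM in CD8 T cells (9047 to 13341) and at 8276 ± 1792 CPM in NK cells (6466 to 12405), and 95.8% and 95% of these cells had a UMI (median depths 3027.0 and 3327.0 UMIs), against 2.24% of mature B cells. CD8 T cells were above NK cells in 7 of 8 libraries. T cells that fitted no single subset (3566 ± 909 CPM), CD4 T cells (1967 ± 1554 CPM) and gamma-delta T cells (536 ± 270 CPM) came next, each below the one before in 8 of 8 libraries. Migratory dendritic cells, measured in 2 libraries, were at 9775 and 11112 CPM. Border macrophages had 343 ± 152 CPM, of which the 10% of cells with most Ccl5 held 98.9%.

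None of the 150 pairs of neighbours in these orders passed after adjustment, which 8 libraries do not allow here: the smallest exact two-sided sign-flip permutation p is 0.0078, reached by 14 pairs, and its Benjamini-Hochberg adjusted value was 0.0837. Before adjustment 19 pairs were at or under 0.05.

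Across the 16 types measured in every library, the genes whose mean log2(CPM + 1) was most like each member (Pearson's r, of 6170 genes of at least 50 CPM in a type, with types of the same libraries as points) were mostly genes of the same cells. Ccl7 and Ccl12 were among each other's nearest 3 (r = 0.98), and so were Ccl3 and Ccl4 (r = 0.87). Ccl2 was nearest to Fcgr1 (0.98), Ccl8 to Cbr2 (0.97), Ccl12 to Folr2 (0.98) and Ccl24 to Mertk (0.99), all macrophage genes. Ccl5 was nearest to Xcl1, Fasl and Tbx21 (0.97 to 0.98), Ccl6 to Clec4a2 (0.98) and Ccl9 to Csf1r (0.97).

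The receptors were found in other cells than their ligands in part. Ccr2 was at 434 ± 102 CPM in classical monocytes (n = 8), 367 ± 49.6 in type 2 dendritic cells, 336 ± 55.7 in gamma-delta T cells and 265 ± 85.2 in border macrophages themselves. Ccr1 was highest in neutrophils (283 ± 71.5 CPM) and basophils (232 ± 49.9 CPM, n = 6). Ccr8 was at 320 ± 114 CPM in ILC2. Ccr3, the receptor of Ccl24, reached 5.01 ± 4.71 CPM in basophils, its highest type. Of 10 other CC ligands, Ccl19 in fibroblasts (565 ± 176 CPM, n = 5), Ccl22 in migratory dendritic cells (467 ± 187 CPM, n = 2) and Ccl17 in the same cells (209 ± 26 CPM) had the highest mean levels in a type. Ccl1 was at 105 ± 60.1 CPM in ILC2 (n = 8).

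The border macrophages were not uniform in these genes. They were divided by 5 genes of the perivascular side (Lyve1, Cd163, Folr2, Gas6 and Cd209f), into 493 cells with at least 2 of them and 701 with none, leaving out 332 cells with 1. None of the 5 is a chemokine gene, and the median depth of the sides was similar (2860.0 and 2750.0 UMIs). The sums per library were compared with edgeR's quasi-likelihood test with the library as a block, and this comparison was added after the data were examined. Of 2563 genes tested, 25.5% were called at an adjusted p of 0.05, 322 higher and 331 lower on the perivascular side, with a median log2 fold change of 0.02 over all genes.

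Of the 9 members tested, 4 rose and 2 fell on the perivascular side. Ccl8 stood at 1310 ± 556 CPM in macrophages with at least 2 of the genes and at 137 ± 108 CPM in those with none (SD, n = 8 libraries), higher in 8 of 8 libraries (log2 fold change 3.33, SE 0.31, edgeR adjusted p = 2.01e-08). The libraries of the perivascular side lay between 544 and 2292 CPM and those of the other side between 16.6 and 327 CPM, without overlap. Ccl7 stood at 740 and 186 CPM and was higher in 7 of 8 libraries (log2 fold change 1.90, SE 0.23, edgeR adjusted p = 1.03e-06). Ccl12 stood at 1038 and 387 CPM, likewise in 7 of 8 libraries (1.23, SE 0.23, edgeR adjusted p = 0.000363). Ccl2 stood at 1412 and 593 CPM, in 8 of 8 libraries (1.20, SE 0.15, edgeR adjusted p = 1.68e-06). These are the 4 members of the first group on chromosome 11.

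Ccl3 and Ccl4 went the other way in 8 of 8 libraries. Ccl3 was at 215 CPM on the perivascular side and at 391 CPM on the other (log2 fold change -1.01, SE 0.16, edgeR adjusted p = 4.35e-05). Ccl4 was at 485 and 999 CPM (-1.21, SE 0.20, edgeR adjusted p = 5.82e-05). Ccl6 (0.42, edgeR adjusted p = 0.0693), Ccl9 (0.19, 0.501) and Ccl5 (-1.07, 0.154) did not pass, but Ccl6 passed without the App acute colitis library (0.61, edgeR adjusted p = 0.00581) or without the WT acute colitis library (0.54), and Ccl5 passed without the App chronic colitis library (-1.77, 0.00467). Ccl24 had too few UMIs for that test. It was at 120 and 7.91 CPM and higher in 8 of 8 libraries (exact sign-flip permutation p = 0.0078, two-sided, the smallest 8 libraries can give). The MHC class II genes went with the other side: their sum was 37796 CPM in all macrophages with at least 2 perivascular genes and 77236 CPM in those with none.

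**Figure D2:**
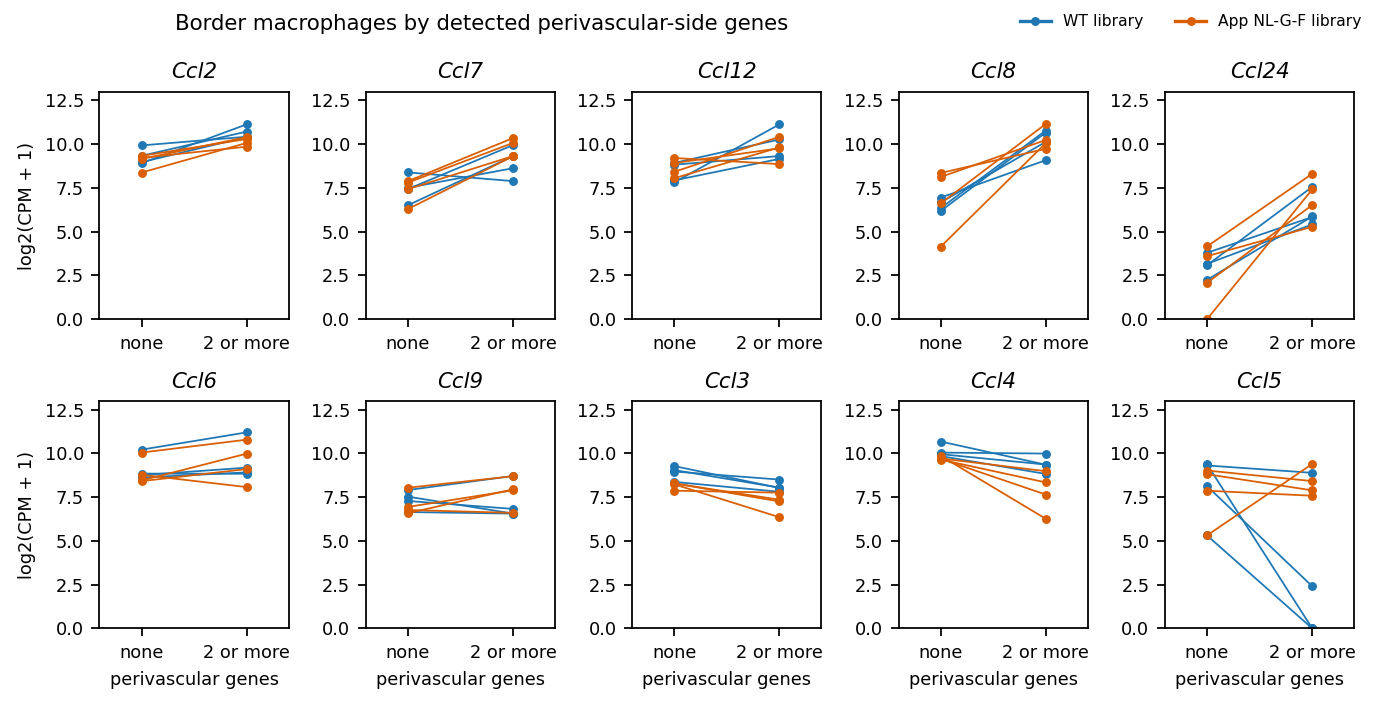
Each panel shows 1 ligand in border macrophages with none and with 2 or more of 5 perivascular-side genes, as log2(CPM + 1). A line joins the 2 sides of 1 library (4 WT and 4 App libraries). Ccl8 and Ccl24 rose and Ccl3 and Ccl4 fell from left to right in 8 of 8 libraries, whereas the lines of Ccl9 and Ccl5 crossed.

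RefSeq promoter sequences (GRCm38, 250 bases before the annotated start) were at hand for 5 members. They are shown for the pair that was highest on the perivascular side among them and for the pair of myeloid ligands that is described next. In macrophages Ccl12 and Ccl8 moved in the same direction between the sides, and Ccl6 and Ccl9 did so in acute colitis. In monocytes and neutrophils Ccl6 and Ccl9 did not always move together. The intervals are chr11:82101595-82101844 (Ccl12, plus strand), chr11:82114935-82115184 (Ccl8, plus), chr11:83593088-83593337 (Ccl6, minus) and chr11:83578637-83578886 (Ccl9, minus), each 5′ to 3′ on the strand of its gene. Capitals mark the motifs named below and, in Ccl6 and Ccl9, the longest run that the pair shares.
Ccl12: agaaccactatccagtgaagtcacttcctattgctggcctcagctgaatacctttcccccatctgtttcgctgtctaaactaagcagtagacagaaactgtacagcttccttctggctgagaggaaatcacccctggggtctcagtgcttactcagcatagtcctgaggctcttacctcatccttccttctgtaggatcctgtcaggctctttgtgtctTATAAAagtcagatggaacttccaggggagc
Ccl8: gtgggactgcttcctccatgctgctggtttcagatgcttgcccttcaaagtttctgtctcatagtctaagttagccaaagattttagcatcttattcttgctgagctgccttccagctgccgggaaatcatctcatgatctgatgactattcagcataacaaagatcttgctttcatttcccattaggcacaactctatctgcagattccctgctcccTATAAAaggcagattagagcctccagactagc
Ccl6: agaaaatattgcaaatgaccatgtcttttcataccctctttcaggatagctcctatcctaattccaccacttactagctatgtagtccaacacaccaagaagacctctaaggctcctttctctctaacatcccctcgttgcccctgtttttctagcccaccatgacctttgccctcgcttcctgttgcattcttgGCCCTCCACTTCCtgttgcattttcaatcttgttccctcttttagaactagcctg
Ccl9: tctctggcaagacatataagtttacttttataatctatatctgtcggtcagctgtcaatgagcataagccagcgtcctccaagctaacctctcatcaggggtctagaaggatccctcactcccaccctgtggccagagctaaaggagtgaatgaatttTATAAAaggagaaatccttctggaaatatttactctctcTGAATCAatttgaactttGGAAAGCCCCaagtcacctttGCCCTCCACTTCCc
The letters TATAAA, the core of a TATA box, were searched on the given strand and stood 31 bases before the start in Ccl12, 32 bases before it in Ccl8 and 92 bases before it in Ccl9. They occurred in 3 of the 5 members' windows and in 8.12% of all 27025 promoter windows. An AP-1 motif (TGANTCA, both strands) was found in Ccl9 only, as in 6.87% of all windows, and so was a kappa B motif (both strands, 1.4% of windows). An interferon response motif (both strands) was in none of the 5 and in 3.04% of all windows. Ccl6 and Ccl9 shared a run of 13 bases, GCCCTCCACTTCC, which 3 of the 27025 windows held: these and that of Gm31822. No motif overlapped another.

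Conditions were compared within border macrophages over 16 hashtag groups, 2 for each condition, with edgeR's quasi-likelihood test across 4248 genes. All 10 members were tested in 7 comparisons (each treatment against control in each genotype, and the App control against the WT control). There were 9 calls at an adjusted p of 0.05, 1 higher and 8 lower, and 20 of the 70 tests were under an unadjusted p of 0.05. The percentage of all genes called was 3.7 for WT acute colitis, 1.88 for WT chronic colitis, 0.8 for WT food allergy and 1.25 for App acute colitis. It was 0.235 for App chronic colitis, 0 for App food allergy and 0.989 for App control against WT control, where no member was called. The median log2 fold change of the 10 members lay between -0.59 and 0.01 over the 7 comparisons, and that of all genes between -0.02 and 0.01. As the groups of 1 condition shared a library, the p-values measure the spread between marked samples, which may be technical, and not that between libraries.

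Ccl6, a Ccr1 ligand, was lower in macrophages of treated mice. The 2 groups of the WT control were at 1635 and 1451 CPM. Those of WT acute colitis were at 414 and 489, of WT chronic colitis at 519 and 711, and of WT food allergy at 349 and 475 CPM. None of the 6 treated WT groups overlapped the controls. With 2 groups a side such separation can arise by chance, and the share of all genes that show it is not given here. Ccl6 fell in WT acute colitis (log2 fold change -1.78, SE 0.27, edgeR adjusted p = 0.000493), WT food allergy (-1.86, SE 0.28, edgeR adjusted p = 0.00112) and WT chronic colitis (-1.32, SE 0.29, edgeR adjusted p = 0.0151). The last call was lost when either WT control group or the larger WT chronic colitis group was left out.

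In App mice the control groups were at 1074 and 1935 CPM, and the treated groups at 352 and 342 (acute colitis), 538 and 789 (chronic colitis) and 428 and 538 (food allergy). Ccl6 fell in App acute colitis (log2 fold change -2.21, SE 0.28, edgeR adjusted p = 0.000245). App chronic colitis (-1.15, SE 0.27, edgeR adjusted p = 0.111) and App food allergy (-1.65, SE 0.29, edgeR adjusted p = 0.0546) did not pass. The effects of treatment were not shown to differ between genotypes (interaction terms -0.42, 0.17 and 0.20, SE 0.38 to 0.40, edgeR adjusted p from 0.895 to 0.954). The App control did not differ detectably from the WT control in this gene (0.00, SE 0.26).

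The lower values were seen on both sides of the macrophages. With at least 2 perivascular genes the WT control library was at 2351 CPM and the WT acute colitis library at 456 CPM, and with none they were at 1187 and 459 CPM. In App the values were 1762 and 268 CPM, and 1056 and 438 CPM. Classical monocytes and neutrophils also hold Ccl6, and their markers were measured in the same groups. The sum of the 7 classical monocyte markers was 3209 and 2709 CPM in the WT control groups (7 and 4 of the 7 detected) and 2878 and 2961 CPM in WT acute colitis (6 of 7 in both), and 3298 and 2604 CPM in the App control (6 and 5) and 2731 and 3407 CPM in App acute colitis (5 in both). The sum of the 7 neutrophil markers was 126 and 122 CPM in the WT control (3 of 7 detected in both) and 38.9 and 106 CPM in WT acute colitis (4 and 6), and 84.1 and 272 CPM in the App control (4 in both) and 55.1 and 41.7 CPM in App acute colitis (3 and 2). The neutrophil precursor markers stood at 5207 CPM in the App control group that had 1935 CPM of Ccl6 and at 48.1 CPM in the other, and at 88.7 and 59.96 CPM in App acute colitis. They were at 46.7 and 17.5 CPM in the WT control, 9.73 and 5.90 CPM in WT acute colitis, 2382 and 74.1 CPM in WT chronic colitis, and 10309 and 859 CPM in WT food allergy. The part of these cells in the result was not tested. When groups of 10 to 19 macrophages were added, none of the 4 Ccl6 calls passed, with log2 fold changes between -1.85 and -1.33 and edgeR adjusted p from 0.0658 to 0.298.

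Ccl9 fell with acute colitis in both genotypes. The WT control groups were at 248 and 332 CPM and the WT acute colitis groups at 95.9 and 102 CPM (log2 fold change -1.52, SE 0.29, edgeR adjusted p = 0.00335). The App control groups were at 252 and 362 CPM and the App acute colitis groups at 88.7 and 146 CPM (-1.42, SE 0.29, edgeR adjusted p = 0.0187). Within each genotype the acute colitis groups lay below the controls, again with only 2 groups a side. Chronic colitis and food allergy groups lay between 122 and 222 CPM. Free Ccl9 RNA in empty barcodes was at 42.0 CPM in the WT control (9 UMIs) and 18.1 CPM in WT acute colitis (5 UMIs). In App it was at 42.7 CPM (30 UMIs) and 25.1 CPM (10 UMIs), and its part in the result was not tested. The WT call was lost without the group with hashtag 4 of WT acute colitis, and the App call without that with hashtag 4 of App acute colitis or that with hashtag 7 of the App control, and when groups of 10 to 19 cells were added.

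Ccl24, the eosinophil attractant, was the 1 member called higher. It passed the filter on low counts through the groups where it is high, mainly those of acute colitis, so a difference was built into its admission and the call is no support of its own. It was at 119 and 279 CPM in App acute colitis and at 24.0 and 6.96 CPM in the App control (log2 fold change 3.40, SE 0.74, edgeR adjusted p = 0.0241). In WT acute colitis the groups were at 150 and 47.2 CPM against 28.0 and 0 CPM in the WT control, which did not pass (2.42, SE 0.83, edgeR adjusted p = 0.129). The App call was lost without the group with hashtag 5 of App acute colitis or either App control group, and when groups of 10 to 19 cells were added (2.44, edgeR adjusted p = 0.181). The share of macrophages with at least 2 perivascular genes was also higher with acute colitis than in the control. It was 42.1% and 44.6% in App acute colitis against 26.0% and 23.3% in the App control, and 44.3% and 41.9% against 17.3% and 25.0% in WT. Chronic colitis groups were at 28.6% and 44.2% in App and 24.1% and 40.0% in WT. Food allergy groups were at 10.3% and 22.6% in App and 20.0% and 13.5% in WT. Among the macrophages with at least 2 of these genes Ccl24 was at 316 CPM in App acute colitis and 91.0 CPM in the App control, and at 188 and 41.7 CPM in WT.

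Ccl5 fell in WT macrophages with colitis. The WT control groups were at 364 and 341 CPM and the WT acute colitis groups at 124 and 97.3 CPM (log2 fold change -1.69, SE 0.39, edgeR adjusted p = 0.0161), but the call was lost when any 1 of these 4 groups was left out. In WT chronic colitis there was no Ccl5 UMI among 200544 UMIs of the 2 groups, against 117 UMIs in the control. A count of 0 allows up to 3 UMIs over the condition (15.0 CPM), a limit 23.8-fold below the measured control level. That ratio leaves out the counting error of the control. The fall was called with an edgeR adjusted p of 0.00124. Both WT chronic colitis groups were small, with 29 and 20 macrophages, and the call was lost without the larger.

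In App, Ccl5 was at 92.2 and 174 CPM in the control and at 266 and 209 CPM in acute colitis. The acute colitis effect in App exceeded that in WT by 2.51 (SE 0.58, edgeR adjusted p = 0.0474; 0.8% of genes were called in this interaction), a call that held in 4 of 15 alternatives, with adjusted p up to 0.395 in the others. In WT the markers of T cells and, less evenly, of NK cells moved with Ccl5, whereas those of mature B cells did not. The sum of the 6 T cell markers was 65.4 and 105 CPM in the WT control (6 and 4 of the 6 detected), 18.1 and 2.95 CPM in WT acute colitis (5 and 1), and 0 in both WT chronic colitis groups. The sum of the 6 NK cell markers was 56.1 and 8.74, then 15.3 and 0, then 7.52 and 0 CPM. Free Ccl5 RNA, measured in empty barcodes, moved with the Ccl5 level of the macrophages as well in WT. It was at 3027 CPM in the WT control library, 877 in WT acute colitis and 388 in WT chronic colitis, each above the level in the macrophages. In App it was at 1771 CPM in the control and 965 CPM in acute colitis, the opposite direction to Ccl5 in the macrophages. The part of these cells and of free RNA in the result was not tested.

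**Figure D3:**
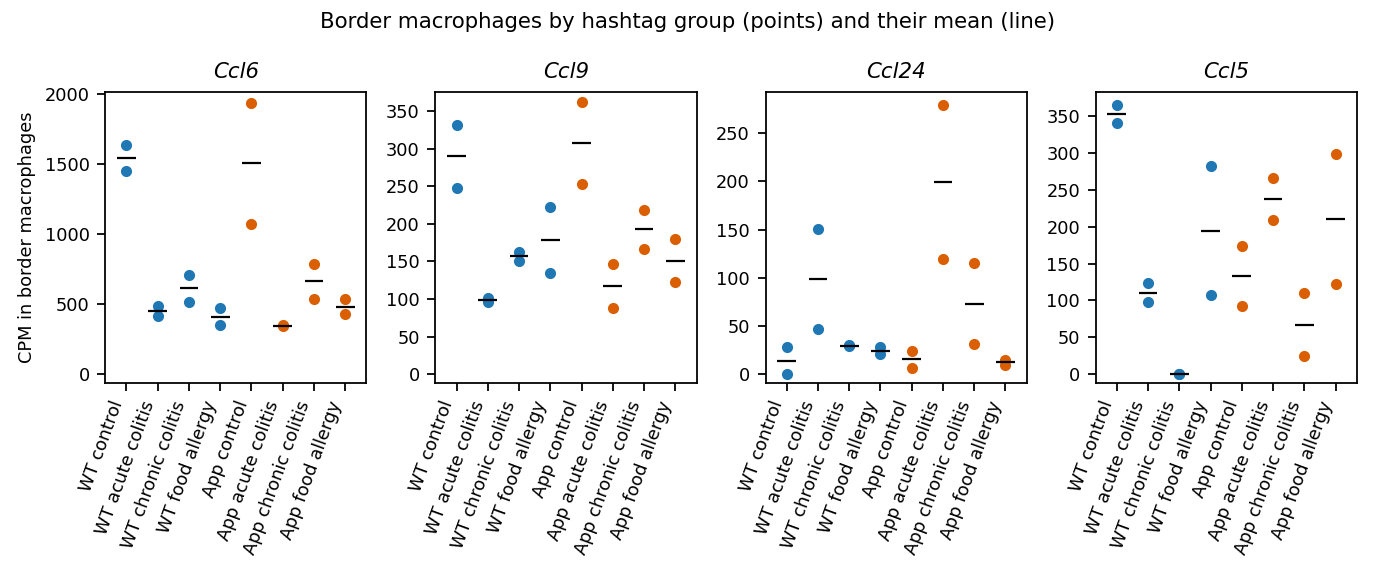
CPM of Ccl6, Ccl9, Ccl24 and Ccl5 in border macrophages of the 16 hashtag groups (points) by condition, with the mean of the 2 groups as a line. The Ccl6 groups of treated mice lay between 342 and 789 CPM and those of the controls between 1074 and 1935 CPM.

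Ccl2, Ccl7, Ccl12, Ccl8, Ccl3 and Ccl4 were not called in macrophages in any of the 7 comparisons. In simulated macrophage counts for App acute colitis against App control, 55% of 4-fold changes were called. The absence of a call therefore does not show equal levels. The values of Ccl2 ran from 596 CPM in a group of App chronic colitis to 1956 CPM in a group of WT chronic colitis, and its log2 fold changes from -0.43 to 0.15. Ccl8 came nearest among the 6, with 514 and 848 CPM in the WT control, 188 and 341 CPM in WT chronic colitis (log2 fold change -1.39, SE 0.51, edgeR adjusted p = 0.204), 1302 and 606 CPM in the App control and 204 and 510 CPM in App chronic colitis (-1.41, SE 0.44, edgeR adjusted p = 0.283). Of the 14 CC receptors, 4 had enough UMIs for the test in macrophages, and 2 of their 28 tests passed. Ccr1, the receptor of Ccl6 and Ccl9, fell in WT acute colitis (-2.07, SE 0.41, edgeR adjusted p = 0.00485) and Ccr2 fell in App acute colitis (-1.4, SE 0.27, edgeR adjusted p = 0.00886).

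In the other types, low and high immediate-early groups entered the same test, and no member was called in any of the 7 comparisons by edgeR. Of 7 members with enough UMIs in classical monocytes, 2 of 49 tests were under an unadjusted p of 0.05. In neutrophils it was 3 of 35 (5 members), in NK cells 1 of 21 and in CD8 T cells 2 of 21 (Ccl3, Ccl4 and Ccl5 in both). In monocytes 1.01%, 2.8% and 0.504% of all genes were called for WT acute colitis, chronic colitis and food allergy, 0%, 0.0215% and 0% for the same treatments in App, and 2.08% for the App control against the WT control. In neutrophils the percentages were 1.14, 0.498 and 0.0369 in WT, 0.0184, 0 and 0 in App, and 0.572 between the controls. In NK cells they were 2.05, 2.57 and 1.52, then 0.0395, 0.0592 and 0, and 2.33, and in CD8 T cells 2.06, 2.68 and 1.88, then 0.104, 0.0864 and 0.0691, and 3.03. No member passed in the differences between genotypes either, where 0.59%, 1.12% and 0.322% of genes were called in monocytes for acute colitis, chronic colitis and food allergy, 0.387%, 0.277% and 0% in neutrophils, 1.22%, 1.52% and 0.967% in NK cells, and 1.3%, 1.76% and 1.09% in CD8 T cells. Of these tests 0 of 21 were under an unadjusted p of 0.05 in monocytes, 1 of 15 in neutrophils, 2 of 9 in NK cells and 0 of 9 in CD8 T cells.

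The sets differed in Ccl2, Ccl3 and Ccl4. In classical monocytes Ccl2 ran from 22.0 to 191 CPM over the 16 groups of the high set (median 106) and from 0.788 to 9.56 CPM over the 8 groups of the low set (median 2.82), without overlap. In the 6 libraries with groups of both sets, Ccl2 was higher in the high set in 6 of 6 (mean log2(CPM + 1) difference 4.59 ± 1.17, SD). Ccl4 ran from 25.7 to 586 CPM in the high set and from 0 to 1.18 CPM in the low set of monocytes, and Ccl3 from 16.7 to 140 and from 0 to 6.70 CPM. Both differed in the same direction in 6 of 6 libraries. The share of all genes that separate the sets is not given here. The separation, here and in the types below, is therefore not shown to be particular to these members.

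In neutrophils Ccl4 ran from 116 to 1039 CPM in 16 high groups and from 0 to 5.88 CPM in 7 low groups, and Ccl3 from 3.87 to 263 CPM and from 0 to 1.96 CPM. Plasmacytoid dendritic cells had 852 to 2518 CPM of Ccl4 in 4 high groups and 0 to 8.44 CPM in 6 low groups. In NK cells and CD8 T cells the sets overlapped in both genes, with a mean within-library difference of 2.38 ± 1.61 for Ccl4 in NK cells (7 of 7 libraries) and 1.20 ± 1.05 in CD8 T cells (6 of 7). Ccl5 in CD8 T cells (0.14 ± 0.30, 4 of 7) and Ccl6 in neutrophils (0.29 ± 3.0, 2 of 4) did not follow the sets. The sets also differ in which cells they hold, and the part of handling or of cell source in these differences was not tested.

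**Figure D4:**
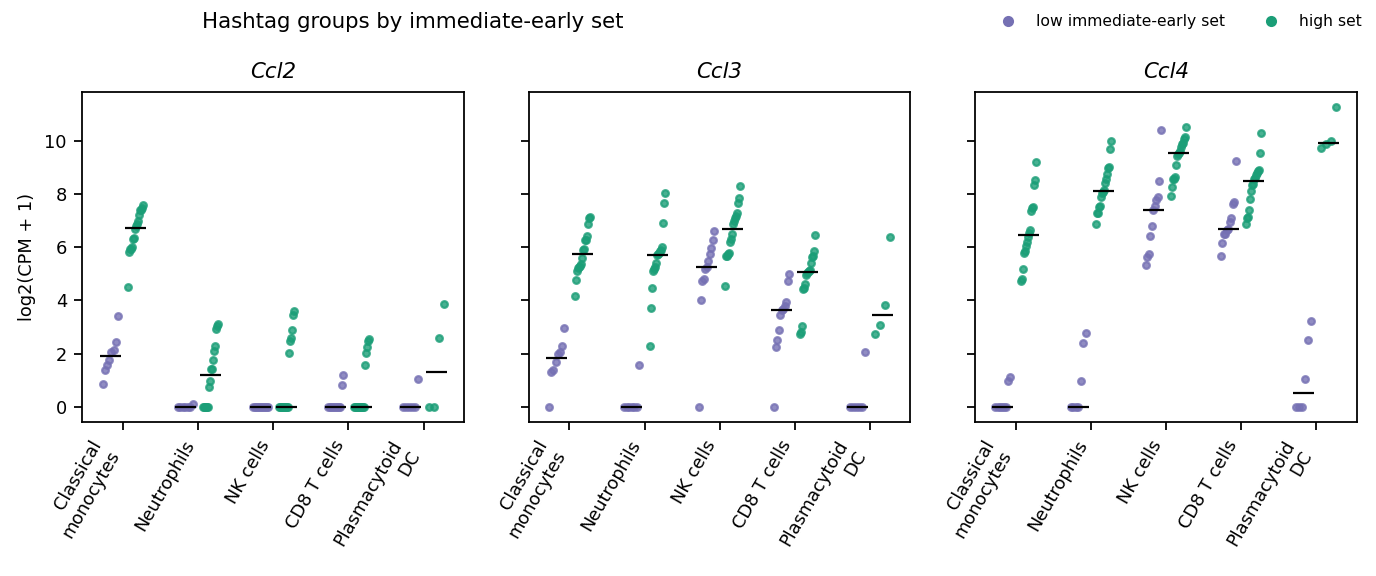
Ccl2, Ccl3 and Ccl4 as log2(CPM + 1) in the hashtag groups (points, sorted by value) with low and with high immediate-early sums in 5 cell types, with the median as a line. The sets did not overlap for Ccl2, Ccl3 and Ccl4 in classical monocytes, nor for Ccl3 and Ccl4 in neutrophils, whereas those of NK cells and CD8 T cells overlapped for Ccl3 and Ccl4.

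When only the 2 high groups of each condition were compared, an alternative added after the data were examined, members passed in monocytes and neutrophils. In neutrophils there were 8 calls, each higher than the control. Ccl6 was at 138 and 430 CPM in the WT control, at 1745 and 2101 CPM in WT acute colitis and at 543 and 1454 CPM in WT chronic colitis. The groups did not overlap, with only 2 a side. It rose in WT acute colitis (log2 fold change 2.68, SE 0.43, edgeR adjusted p = 9.66e-05; 19.5% of all genes called) and in WT chronic colitis (1.77, SE 0.43, edgeR adjusted p = 0.00974; 10.3% called).

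In App the neutrophils of the control were at 81.7 and 180 CPM of Ccl6. Those of acute colitis were at 953 and 1026 (2.66, SE 0.47, edgeR adjusted p = 0.00114; 4.41% of genes called), of chronic colitis at 1216 and 1488 (3.16, SE 0.44, edgeR adjusted p = 8.09e-05; 9.62% called) and of food allergy at 342 and 691 CPM (1.93, SE 0.43, edgeR adjusted p = 0.0291; 0.887% called). Low groups of App libraries had from 74.6 CPM (App acute colitis, 1071 of 1184 gated neutrophils) to 1911 CPM (App food allergy, 28 cells). The App acute colitis call thus rests on a small part of its neutrophils. Over all hashtag groups no App call was made for Ccl6. Its log2 fold changes there were 0.55 (SE 0.77) for acute colitis, 1.08 (SE 0.71) for chronic colitis and 1.10 (SE 0.71) for food allergy. Ccl4 rose in WT acute colitis, from 341 and 234 to 1039 and 825 CPM (1.61, SE 0.25, edgeR adjusted p = 7.11e-05), and in App chronic colitis, from 186 and 116 to 519 and 376 CPM (1.4, SE 0.26, edgeR adjusted p = 0.00144). Ccl3 rose in WT acute colitis (2.07, SE 0.56, edgeR adjusted p = 0.00997). No member was called in WT food allergy (3.61% of genes called) or between the controls (1.54%), nor in the differences between genotypes (0.501% of genes called for acute and 0.733% for chronic colitis, 3 of 15 tests under an unadjusted p of 0.05).

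The mean immediate-early sum of the high neutrophil groups moved in the same direction, from 9021 CPM in the WT control to 18767 CPM in WT acute colitis and 9647 CPM in WT chronic colitis, and from 7312 CPM in the App control to 14988, 12245 and 10696 CPM in App acute colitis, chronic colitis and food allergy. The summed neutrophil precursor markers were 65490 CPM in the WT control and 45113 CPM in WT acute colitis, and 74410 and 79196 CPM in App. Their part in the result was not tested.

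In classical monocytes of the high set there were 14 calls, 12 lower and 2 higher. WT chronic colitis held 6 of them, where 33.7% of all genes were called. Ccl2 was at 191 and 168 CPM in the WT control and at 22.0 and 63.1 CPM in WT chronic colitis (log2 fold change -2.68, SE 0.39, edgeR adjusted p = 1.95e-05). Ccl4 (-3.09), Ccl3 (-2.31), Ccl6 (-1.68), Ccl9 (-1.30) and Ccl12 (-3.98) fell as well (edgeR adjusted p from 1.86e-06 to 0.0341). Ccl12 had only 101 UMIs in all 3108 classical monocytes, 40 of them in the WT control library. It may have passed the filter on low counts through the WT control groups, so its call is no support of its own. The group of 550 cells that set the lower values had the lowest immediate-early sum, 2516 CPM, against 12866 and 14098 CPM in the WT control, and the summed precursor markers rose from 1434 to 5144 CPM.

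Of the other monocyte calls, Ccl9 fell in WT acute colitis (-0.71; 13.3% of genes called) and App chronic colitis (-0.67; 3.5%), Ccl6 and Ccl9 fell in WT food allergy (-1.09 and -0.64; 15.2%) and in the App control against the WT control (-1.19 and -0.61; 20.1%), and Ccl6 rose in App acute colitis (1.08; 6.15%), with edgeR adjusted p from 0.000174 to 0.0358. App food allergy had none (1.11%). The difference between genotypes passed for Ccl6 in acute colitis (1.31, SE 0.28, edgeR adjusted p = 0.00961; 4.21% of genes called), and for Ccl2 (2.09, SE 0.53, edgeR adjusted p = 0.0142) and Ccl6 (1.33, SE 0.28, edgeR adjusted p = 0.00394) in chronic colitis (9.55% called), and for none in food allergy (1.59% called). The opposite directions of Ccl6 in App acute colitis monocytes (1085 and 852 CPM against 461 and 441 CPM in the control) and macrophages (352 and 342 against 1074 and 1935 CPM) stand side by side, and their difference was not tested. Ccl5 was also called higher in App acute colitis, where 1 group of 43 cells was at 1157 CPM and the other of 30 cells at 0. In NK cells Ccl4 rose in App acute colitis (1.45, edgeR adjusted p = 0.0427; 0.209% of genes called) and fell in the App control against the WT control (-1.21, edgeR adjusted p = 0.0323; 1.88%), and in CD8 T cells no member was called, with 1 of 21 tests under an unadjusted p of 0.05.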

How the data were processed

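The 8 libraries of CD45.2+ brain cells (5′ single-cell kit, feature barcodes for hashtags) were deposited by the authors as unfiltered UMI counts per barcode, made with Cell Ranger 6.1.2 on mm10 per the labels. Counts were used as deposited. Cells were called by the order-of-magnitude rule (3000 expected cells) plus a test against the ambient profile (at least 500 UMIs, false discovery rate 0.01), keeping those with 200 or more genes and a mitochondrial share up to 5%. Types were gated on at least 3 markers, and hashtags by a valley cutoff. Cells with several hashtags (4657) stayed in the library levels and out of the hashtag groups, and cells that met the gates of 2 lineages were dropped as likely doublets. No other doublet caller was run. The members and gene lists were chosen with earlier results of these data known: all 10 members are named, and the other genes are those of fixed lists.

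Library levels (types with at least 20 cells) used log2(CPM + 1) and exact sign-flip permutation tests. UMIs summed per hashtag group of at least 20 cells were tested with edgeR 4.0.16 (R 4.3.3; TMM, quasi-likelihood, Benjamini-Hochberg over all genes) on all conditions together, and with DESeq2 1.42.0 as an alternative. The labels do not tie hashtags to animals. Scripts were tested on simulated data. Promoters are from a RefSeq table, coding sequences and coordinates from GENCODE vM21 (GRCm38). A few items are not reported here.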

Additional observations from a re-analysis of the deposited data

Results flagged for a closer look

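In 4 of 53 sets of 4 hashtag groups tested with Dixon's ratio, 1 group stood apart from the others of its library. Chance gives about 1 in 20. Ccl12 was at 12.8 CPM in 1 group of App control classical monocytes, Ccl3 at 52.8 CPM in 1 group of App control neutrophils, Ccl3 at 317 CPM in 1 group of App chronic colitis NK cells, and Ccl3 at 32.8 CPM in 1 group of App control CD8 T cells. Each was the highest of its 4 groups. The acute colitis effect on Ccl5 in border macrophages differed between genotypes by the interaction term (App minus WT 2.51 on the log2 scale, edgeR adjusted p = 0.0474). It kept its sign in 15 of 15 alternatives, between 1.99 and 2.99, and stayed called in 4 of them.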

How the results depend on the processing

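Of the named log2 fold changes 467 kept their side of the threshold over the alternatives, 43 became called and 31 lost their call. No value called with all hashtag groups changed sign. Among those called with the high set only, the sign turned in some setting that kept the low set for Ccl6 in App acute colitis neutrophils (-0.24 to 2.66), Ccl9 in WT acute colitis (-0.71 to 0.10) and WT food allergy monocytes (-0.66 to 0.11), Ccl5 in App acute colitis monocytes (-4.05 to 6.22) and the Ccl6 acute colitis difference between genotypes in monocytes (-0.19 to 1.31). With the order-of-magnitude rule alone for cell calling, levels (mean log2(CPM + 1)) went from 9.79 to 9.45 for Ccl2, 8.70 to 8.01 for Ccl7, 9.08 to 8.24 for Ccl8, 9.11 to 8.44 for Ccl12 and 5.32 to 3.82 for Ccl24 in macrophages, and from 13.43 to 12.91 for Ccl5 in CD8 T cells, while the other 54 level values moved by less than 1 SD. No pair of types could pass the threshold in the order, so its stability was not tested by it, and Ccl9 in macrophages minus type 2 dendritic cells ran from -0.13 to 0.14. The 9 member calls in macrophages became 16 without a filter on low counts and 3 with groups of at least 10 cells (Ccl5 and Ccl9 in WT acute colitis, Ccl5 in WT chronic colitis), and the 1 interaction call ranged from 0 to 2 when 1 group was left out. With the immediate-early set as a term, which could not be fitted in macrophages, the calls were 4 in monocytes, 1 in neutrophils and 1 in NK cells against 0. With the high set only they were 14, 8 and 2, and 3 monocyte interactions. With only the conditions compared, 5 calls were made in neutrophils. Without a filter, 6 were made in NK cells and 3 in CD8 T cells. Leaving out 1 group gave 0 to 3 calls in monocytes (3 without WT control hashtag 5, 1 without App acute colitis hashtag 7) and 0 to 1 in neutrophils (1 without WT chronic colitis hashtag 6). Except for the high set, the share of all genes called in each of these settings is not given here. These counts of calls thus cannot be read as results about the members. Between macrophage sides, leaving out 1 library moved Ccl5 to between -1.77 and -0.55 and Ccl6 to between 0.26 and 0.61. No paired analysis was possible because, for the comparisons between conditions, each condition has 1 library and hashtag numbers do not mark animals shared between conditions. The causes were not tested beyond these settings. Depth limits Ccl24 most, with 410 UMIs in all border macrophages.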
